A study of Mus musculus with 13 samples.

Results

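The genes of meiotic cohesin and of the protease that opens it were examined in mouse oocytes: Rec8, Smc1b, Stag3, Smc3, Sycp3, Sgo2a, Pttg1 and Espl1. These 8 genes were listed by name. All 8 were among the 22442 genes listed for Ribo-seq and the 21898 listed for acRIP-seq, after the Ensembl identifiers had been matched to symbols of the GENCODE M21 annotation. Ribo-seq counts the mRNA fragments that a ribosome shields from RNase I, here called footprints, so a count on a coding sequence (CDS) reads mRNA amount and translation together. It covered 11 libraries of about 100 oocytes each: 3 of WT and 3 of Nat10-ZcKO oocytes at the germinal vesicle (GV) stage, and 2 of WT and 3 of Nat10-ZcKO oocytes at metaphase II (MII). In Nat10-ZcKO females, which came from Nat10 lox/lox mice crossed with Zp3-Cre, the Cre is driven by an oocyte promoter that becomes active in primary follicles and removes Nat10, the enzyme that writes N-acetylcytidine (ac4C) on RNA. The mice had a C57BL/6J background, and GV oocytes were taken after priming of females with PMSG at 21 days of age. Whether the MII oocytes of these libraries matured in the animal or in culture is not specified, and neither is the number of animals pooled per library. The series description also mentions tamoxifen, which a Zp3-Cre allele does not need, and its use here is unclear. acRIP-seq compared mRNA fragments pulled down from WT GV oocytes with an anti-ac4C antibody and with IgG, 1 library of about 2000 oocytes each.

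Cohesin is a ring that holds sister chromatids together from DNA replication until anaphase. In meiosis the ring is built from Smc3 with the germline subunits Smc1b, Rec8 and Stag3, on chromosome axes that also carry Sycp3. Separase, encoded by Espl1, cleaves Rec8 once its inhibitor securin, encoded by Pttg1, has been destroyed, while shugoshin, encoded by Sgo2a, keeps the centromeric rings intact through the first meiotic division. In mouse oocytes these rings are loaded before birth and are renewed little afterwards, and an MII oocyte is arrested with securin present and separase held inactive.

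A short stretch of Pttg1 is shown because it is the part of securin through which the anaphase-promoting complex marks the protein for destruction, and Pttg1 carried most of the footprints described here. A search of the 199 codons of Pttg1 for the destruction-box pattern (arginine, any pair of residues, leucine) gave 1 match, codons 58 to 61, which lies in the CDS on the minus strand at chr11:43424794-43424823 of GRCm38. The capitals mark these codons, 5′ to 3′.
Pttg1 destruction box: aaagccagcAGAAAGGCTTTGgggacagtc

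Short sites near the mRNA end are shown because cytoplasmic polyadenylation elements (CPEs) are the best known sequence feature of mRNAs whose translation changes during oocyte maturation. The letters TTTTAT and TTTTAAT were searched on the mRNA strand of the annotated 3′ UTRs. Within the last 150 bases, 2 of the 8 genes had a match, Sycp3 and Sgo2a, against 21.8% of 20543 genes with a 3′ UTR. Anywhere in the 3′ UTR, Smc3 had 5 matches, Sgo2a 4 and Sycp3 1, against 54.7% of all genes with at least 1. Espl1, Pttg1, Rec8, Smc1b and Stag3 had none of these letters in 3′ UTRs of 34 to 349 bases. The match of Sycp3 is at chr10:88473174-88473203 and that of Sgo2a at chr1:58025825-58025854, both on the plus strand of GRCm38, and the capitals mark the searched letters.
Sycp3 site: ttgtttgtttgTTTTAATagttgttctctc
Sgo2a site: acttatgtatcaTTTTATcattaattctct

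The libraries held 4815 to 279464 footprints on genes, so a count of 0, which allows up to 3 counts, left room for 10.7 to 623 CPM (counts scaled to a library total of 1e6). Counting intervals and these limits cover counting error only. The libraries that stood apart from the rest were 3, namely Nat10-ZcKO GV replicates 1 and 2 and WT MII replicate 2. A list of 14 oocyte markers took 5.65 to 7.77% of footprints in WT GV but 0.0212% and 1.49% in Nat10-ZcKO GV replicates 1 and 2, with 4 and 12 markers detected, and 11.2% in replicate 3. A list of 16 adipocyte markers took 1.53% and 0.336% in those replicates against 0.0213 to 0.0447% in the other GV libraries. WT MII replicate 2 held 4815 footprints, 1 of 14 oocyte markers and no footprint on any of the 8 genes, while the other MII libraries had oocyte markers at 0.975 to 1.14%. Correlation of log2(CPM + 1) with any other library reached at most 0.111 for WT MII replicate 2, 0.441 for Nat10-ZcKO GV replicate 1 and 0.541 for replicate 2, but 0.723 to 0.801 among the 4 remaining GV libraries. The comparisons of stage and genotype are therefore given with these libraries and without them, while the order of levels leaves them out and the search for similar genes keeps them. Nat10 itself had 31.2 to 55.0 CPM in WT GV and 18.0 to 94.4 CPM in Nat10-ZcKO GV, on 11 or fewer footprints per library, and 7.42 CPM in WT MII replicate 1 against 12.5 to 31.9 CPM in Nat10-ZcKO MII, while WT MII replicate 2 had 5 of its 4815 footprints on it (1038 CPM). A count over the whole CDS does not isolate the floxed exons, so this gene could not check the genotype labels. The labels do not say that replicates came from separate animals, so p-values measure the spread between these libraries, which may be technical.

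Together the 8 genes had 3513 of 1526310 footprints. Pttg1 and Espl1, the inhibitor and the protease, held 3264 of these (92.9%), and the 6 genes of the ring, axis and shugoshin held 249. The 3 germline-specific ring subunits had 33 footprints in all. Fewer oocytes and less RNA per oocyte cannot be told apart in such pooled samples.

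**Figure D1:**
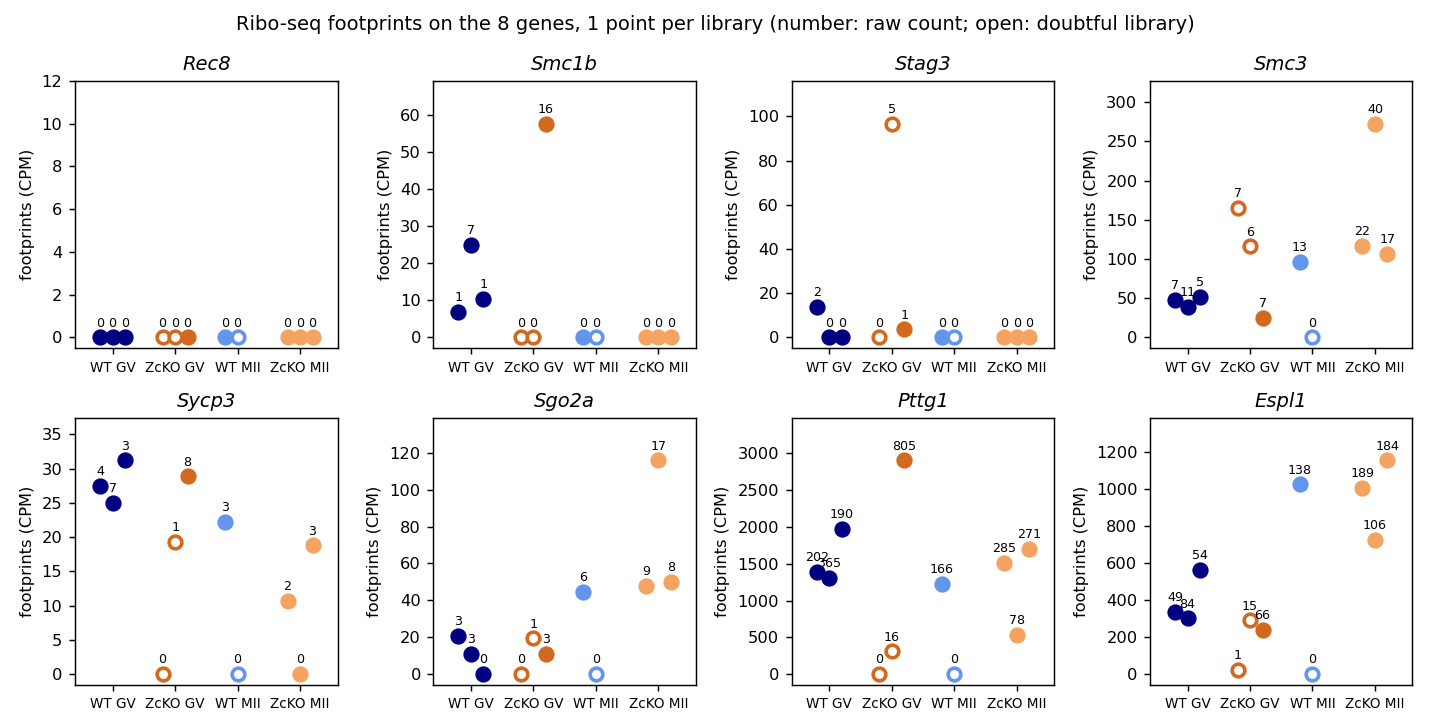
Footprints on the 8 genes in CPM (vertical axes, 1 scale per gene), 1 point per Ribo-seq library in the 4 groups, with the raw count above each point and open points for the 3 libraries that stood apart. Espl1 and Pttg1 reach 1152 and 2905 CPM at most in any library, Rec8 is at 0 in all 11 libraries, and Espl1, Smc3 and Sgo2a lie higher in the 4 filled MII libraries than in the 4 filled GV libraries.

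Rec8, the kleisin that separase cuts to release meiotic cohesion (ENSMUSG00000002324.8, chr14:55618037-55625395), had no footprint in any of the 11 libraries. Over all libraries this allows up to 1.97 CPM, or 1.11 CPM per kilobase of its CDS of 1773 bases. No difference between groups was detectable for Rec8 at this depth.

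Smc1b, the meiotic partner of Smc3 in the ring (ENSMUSG00000022432.7, chr15:85064689-85131964), had 1, 7 and 1 footprints in WT GV, 0, 0 and 16 in Nat10-ZcKO GV, and 0 in each of the 5 MII libraries. All 25 footprints were thus in 4 GV libraries, the same 4 that remained after leaving out those that stood apart. Over these 4 the level was 31.3 CPM, and the 0 of the 4 matching MII libraries allows up to 4.77 CPM, so, taking the GV level as counted, Smc1b was at least 6.57-fold lower at MII with a limit of 3 counts over the group. Of its 25 footprints, 16 came from Nat10-ZcKO GV replicate 3, and over the 3 WT GV libraries alone, at 17.3 CPM, the bound was 3.62-fold. In the fit of stage over both genotypes with all libraries Smc1b was too low to be tested. With no filter it was called lower at an adjusted p under 0.05, where 86 of 13685 genes were called higher and 178 lower. With genes of at least 10 counts it was called lower too, where 282 of 8678 genes were called higher and 430 lower.

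Stag3, the meiotic subunit that binds Rec8 (ENSMUSG00000036928.14, chr5:138280240-138312393), had 2, 0 and 0 footprints in WT GV, 0, 5 and 1 in Nat10-ZcKO GV and 0 in all 5 MII libraries. Of its 8 footprints, 5 came from Nat10-ZcKO GV replicate 2, a library that stood apart. Without such libraries 3 footprints remained, all at GV, and no difference was detectable.

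Smc3, the ring subunit shared by mitotic and meiotic cohesin (ENSMUSG00000024974.10, chr19:53600398-53645833), was at 48.1, 39.4 and 52.0 CPM in WT GV and at 165, 116 and 25.3 CPM in Nat10-ZcKO GV. At MII it was at 96.4 and 0 CPM in WT and at 117, 273 and 106 CPM in Nat10-ZcKO. The high GV values belonged to the 2 Nat10-ZcKO libraries that stood apart, on 7 and 6 footprints, and the 0 to WT MII replicate 2. Without these 3 libraries every MII value was above every GV value, with 148 ± 83.4 CPM at MII against 41.2 ± 11.9 CPM at GV (SD, n = 4 each).

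Sycp3, a filament protein of the chromosome axis (ENSMUSG00000020059.9, chr10:88459569-88473236), was at 27.5, 25.0 and 31.2 CPM in WT GV and at 0, 19.3 and 28.9 CPM in Nat10-ZcKO GV. At MII it was at 22.2 and 0 CPM in WT and at 10.6, 0 and 18.8 CPM in Nat10-ZcKO. Without the 3 libraries that stood apart the 4 GV values lay above the 4 MII values, but on 22 and 8 footprints, and a 0 at this depth allows 20.4 CPM in Nat10-ZcKO MII replicate 2. Sycp3 was too low for the main test, and with genes of at least 10 counts tested its change over both genotypes was -0.79 ± 0.95 on the log2 scale (SE, edgeR adjusted p = 0.610). Its CDS shares 288 bases with exons of Chpt1 on the other strand, 13 of them with the CDS of Chpt1.

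Sgo2a, the shugoshin that brings the phosphatase PP2A to centromeric cohesin (ENSMUSG00000026039.9, chr1:57995971-58025899), was at 20.6, 10.7 and 0 CPM in WT GV and at 0, 19.3 and 10.8 CPM in Nat10-ZcKO GV. At MII it was at 44.5 and 0 CPM in WT and at 47.9, 116 and 50.1 CPM in Nat10-ZcKO. Apart from WT MII replicate 2, each MII library was higher than each of the 6 GV libraries. The 0 of Nat10-ZcKO GV replicate 1 allows up to 70.8 CPM, however, and the 19.3 CPM of replicate 2 was 1 footprint. Separation from these GV libraries is therefore not shown. Leaving out the 3 libraries gave 64.6 ± 34.3 CPM at MII against 10.5 ± 8.42 CPM at GV (SD, n = 4 each), on 40 and 9 footprints. Its near-identical copy Sgo2b had 1 footprint, and the split of fragments between these copies is uncertain. On the opposite strand, 2455 bases of the Sgo2a CDS overlap exons of Kctd18, and 0 overlap the CDS of Kctd18. Whether fragments of Kctd18 entered the Sgo2a count is not known. Kctd18 had 24 footprints over the 11 libraries.

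Pttg1, which encodes securin (ENSMUSG00000020415.16, chr11:43420250-43426251), was at 1389, 1306 and 1976 CPM in WT GV and at 0, 309 and 2905 CPM in Nat10-ZcKO GV. At MII it was at 1231 and 0 CPM in WT and at 1516, 532 and 1697 CPM in Nat10-ZcKO. The lowest values again lay in the 3 libraries that stood apart, and the highest of all 11 was Nat10-ZcKO GV replicate 3. GV and MII overlapped with and without the 3 libraries.

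Espl1, which encodes separase (ENSMUSG00000058290.4, chr15:102296266-102324357), was at 337, 301 and 562 CPM in WT GV and at 23.6, 290 and 238 CPM in Nat10-ZcKO GV. At MII it was at 1023 and 0 CPM in WT and at 1005, 722 and 1152 CPM in Nat10-ZcKO. Apart from WT MII replicate 2, each MII library was above each of the 6 GV libraries. The means without the 3 libraries were 976 ± 181 CPM at MII and 359 ± 141 CPM at GV (SD, n = 4 each).

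To ask how these footprints changed from GV to MII, stage was first tested over both genotypes with all 11 libraries. None of the 3 genes that passed the filter on low counts was called at an adjusted p under 0.05, where 21.2% of 3863 tested genes were called. On the log2 scale Espl1 changed by 1.61 ± 1.08 (SE, edgeR adjusted p = 0.250) and Smc3 by 0.85 ± 0.75 (edgeR adjusted p = 0.399). The change of Pttg1 was -0.50 ± 1.15 (edgeR adjusted p = 0.764). DESeq2 called none of the 3 either.

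Without the 3 libraries that stood apart, 4 of the 8 genes could be tested, where 55.0% of 4029 tested genes were called, 25.5% higher and 29.5% lower at MII. Espl1 and Pttg1 passed the filter in both stages. Separase rose, with a log2 change for Espl1 of 1.59 ± 0.32 (SE, edgeR adjusted p = 0.000156). Securin went the other way, and Pttg1 fell by 0.89 on the log2 scale (SE 0.33, edgeR adjusted p = 0.0237). Smc3 and Sgo2a reached the filter's 65.3 CPM in MII libraries only, so their values here, 1.72 ± 0.53 and 2.13 ± 0.85 on the log2 scale, are a description. The median change of all tested genes was -0.10 on that scale.

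The same libraries were therefore also fitted with no filter, a fit added after the values had been seen, in which 17.4% of 13058 genes were called, 8.16% higher and 9.23% lower. Smc3 rose by 1.77 ± 0.54 on the log2 scale (SE, edgeR adjusted p = 0.00909) and Sgo2a by 2.18 ± 0.79 (edgeR adjusted p = 0.0354). Espl1 rose by 1.64 ± 0.34 (edgeR adjusted p = 2.94e-05), and Pttg1 fell by 0.83 (SE 0.29, edgeR adjusted p = 0.0272). Smc1b, with 25 footprints at GV and 0 at MII, was called lower as well (edgeR adjusted p = 0.000543), while Stag3 and Sycp3 were not (edgeR adjusted p = 0.431 and 0.531). Oocyte markers took 5.65 to 11.2% of footprints in the 4 GV libraries and 0.975 to 1.14% in the 4 MII libraries. A list of 15 granulosa and cumulus markers took 0.273 to 0.513% at GV and 0.220 to 0.552% at MII. Of these markers, Ptx3 had 0, 0, 0 and 1 footprints in the GV libraries against 285, 221, 62 and 127 at MII, and Tnfaip6 had 0 in each against 75, 83, 31 and 47. Others of the list went the other way. Amh had 60, 93, 63 and 76 footprints at GV against 1, 4, 2 and 0 at MII, and Foxl2 17, 29, 11 and 11 against 5, 2, 3 and 0. The part of these markers in the changes of the 8 genes was not tested.

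With only WT MII replicate 2 left out, Espl1 rose by 2.30 ± 0.65 (edgeR adjusted p = 0.0130) and Smc3 by 1.49 ± 0.53 on the log2 scale (edgeR adjusted p = 0.0433), where 24.5% of genes were called, 15.6% higher. Sgo2a, which again passed the filter only through MII, was at 2.58 ± 0.78. The change of Pttg1 was then 0.03 ± 0.91 (edgeR adjusted p = 0.986). Of the fits over both genotypes, Pttg1 was therefore called lower only where the Nat10-ZcKO GV replicates with 0 and 309 CPM were also left out. Of the 4 GV libraries then compared, Nat10-ZcKO GV replicate 3 was the highest.

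**Figure D2:**
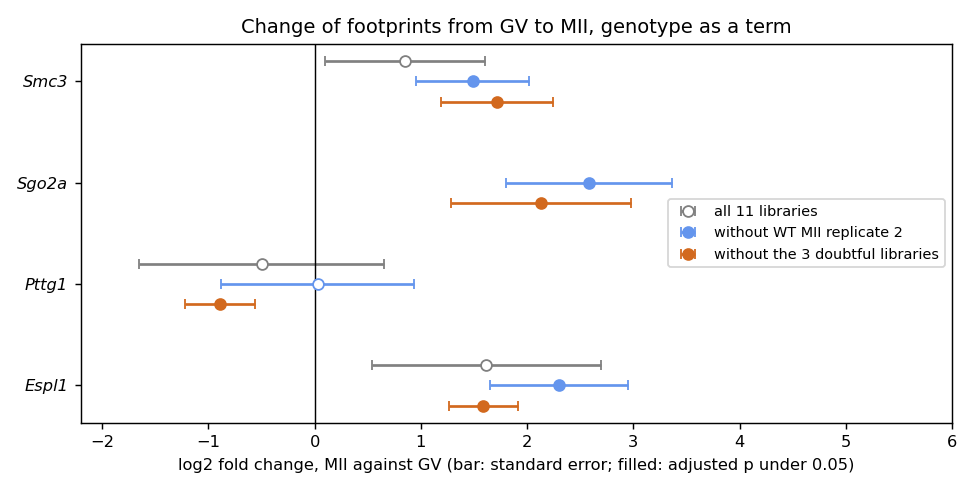
Log2 fold change of footprints at MII against GV (horizontal axis) with its standard error for Smc3, Sgo2a, Pttg1 and Espl1, from the edgeR fit with genotype as a term, in 3 selections of libraries. Sgo2a has no point with all 11 libraries, where it did not pass the filter. Espl1, Smc3 and Sgo2a lie right of 0 with adjusted p under 0.05 (filled) in both selections without WT MII replicate 2, where Sgo2a passed the filter only through MII libraries, as Smc3 did without all 3 libraries, whereas Pttg1 moves from 0.03 to -0.89 between them.

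Within WT oocytes no gene of the 8 was called between stages with all libraries, where 0.293% of genes were called. The log2 change was 0.91 ± 1.58 for Espl1 (edgeR adjusted p = 0.742) and -0.81 ± 1.87 for Pttg1 (edgeR adjusted p = 0.812). With WT MII replicate 1 alone at MII, assumed to vary like the GV libraries, Espl1 rose by 1.48 ± 0.31 on the log2 scale (edgeR adjusted p = 0.00109), where 44.8% of genes were called. Pttg1 then changed by -0.24 ± 0.27. Smc3 passed the filter there only through WT MII replicate 1, so its value of 1.16 ± 0.70 is a description.

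Within Nat10-ZcKO oocytes no gene of the 8 was called with all libraries, where 16.5% of genes were called, and Espl1 changed by 2.01 ± 0.86 (edgeR adjusted p = 0.110). DESeq2 called Espl1 in the same libraries, at 1.94 ± 0.71 (DESeq2 adjusted p = 0.0218). With Nat10-ZcKO GV replicate 3 as the lone GV library, which was assumed to vary like the MII libraries, 38.6% of all genes were called, so these values compare that 1 library. Espl1 rose by 1.73 ± 0.57 (SE, edgeR adjusted p = 0.00886), while Pttg1 fell by 1.50 (SE 0.48, edgeR adjusted p = 0.00778). Smc3 passed the filter there only through MII and Smc1b only through the 16 footprints of that GV library, so their calls are not read.

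Separase and securin can also be compared inside a library, which needs no scaling. This share was chosen after the values had been seen. Of the footprints on the pair, Espl1 had 19.5, 18.7 and 22.1% in the 3 WT GV libraries, with exact 95% intervals between 14.8 and 27.9%. It had 7.58% (5.91 to 9.54%) in Nat10-ZcKO GV replicate 3 and 48.4% (30.2 to 66.9%) in replicate 2, which held 31 footprints on the pair, while replicate 1 had 1 footprint in all. At MII it had 45.4% in WT replicate 1 and 39.9, 57.6 and 40.4% in Nat10-ZcKO. All 4 MII libraries were thus above the WT GV libraries and Nat10-ZcKO GV replicate 3, and the library with 48.4% overlapped them.

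Without the libraries that stood apart the share was 45.8 ± 8.24% at MII against 17.0 ± 6.44% at GV (SD, n = 4 each), where the GV libraries were 3 WT and 1 Nat10-ZcKO and the MII libraries 1 WT and 3 Nat10-ZcKO. With every library that had at least 10 footprints on the pair, it was 45.8% against 23.3 ± 15.1% (n = 4 and 5). The share was chosen after the values had been seen, so these means are a description and no p-value is read for them.

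**Figure D3:**
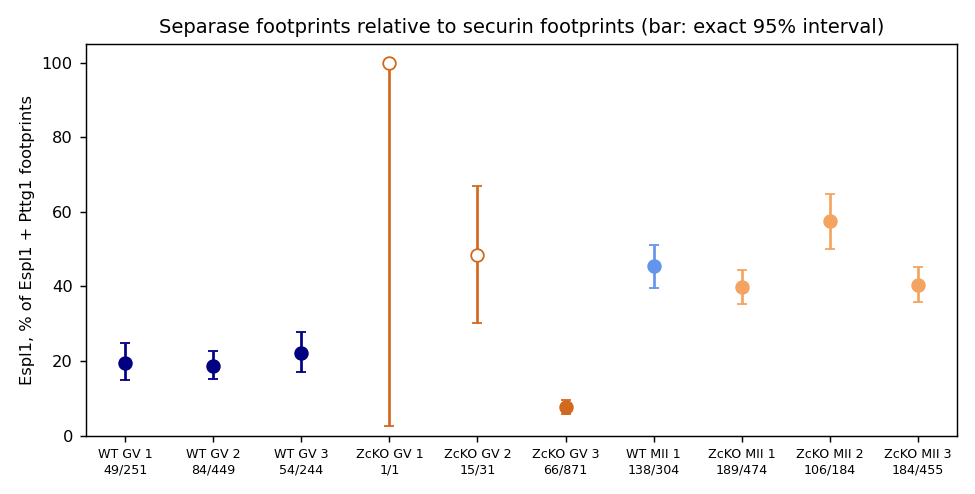
Espl1 footprints as a percentage of Espl1 and Pttg1 footprints (vertical axis) in the 10 libraries with any, with exact 95% intervals and the counts under each library, open for libraries that stood apart. The 3 WT GV libraries lie at 18.7 to 22.1% and the 4 MII libraries at 39.9 to 57.6%, and Nat10-ZcKO GV replicate 3 is the lowest at 7.58%.

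Levels of different genes were compared per CDS length, as TPM. In WT GV oocytes Pttg1 came first of the 8 at 3139 ± 767 TPM, the 24th highest of 22359 genes, and Espl1 was next at 81.3 ± 29.6 TPM, in place 1570 (SD, n = 3). Sycp3 followed at 45.3 ± 5.37 TPM and Smc3 at 16.4 ± 2.36 TPM, and the ranges of these 4 genes did not overlap. Smc1b at 4.87 ± 3.32, Sgo2a at 3.84 ± 3.78 and Stag3 at 1.49 ± 2.59 TPM overlapped one another.

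In the 4 MII libraries that did not stand apart Pttg1 was at 2511 ± 1001 TPM and Espl1 at 199 ± 33.1 TPM. Smc3 at 53.4 ± 31.7, Sgo2a at 24.3 ± 13.6 and Sycp3 at 20.9 ± 16.0 TPM came next, and each of these 3 overlapped the other two (SD, n = 4). In the order of the means, Sgo2a and Smc3 stood above Sycp3 at MII and below it at GV. Per length, Pttg1 exceeded Espl1 by 34.9 to 43.1 times in WT GV, by 121 times in Nat10-ZcKO GV replicate 3 and 10.6 times in replicate 2, by 11.9 times in WT MII replicate 1 and by 7.30 to 15.0 times in Nat10-ZcKO MII.

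**Figure D4:**
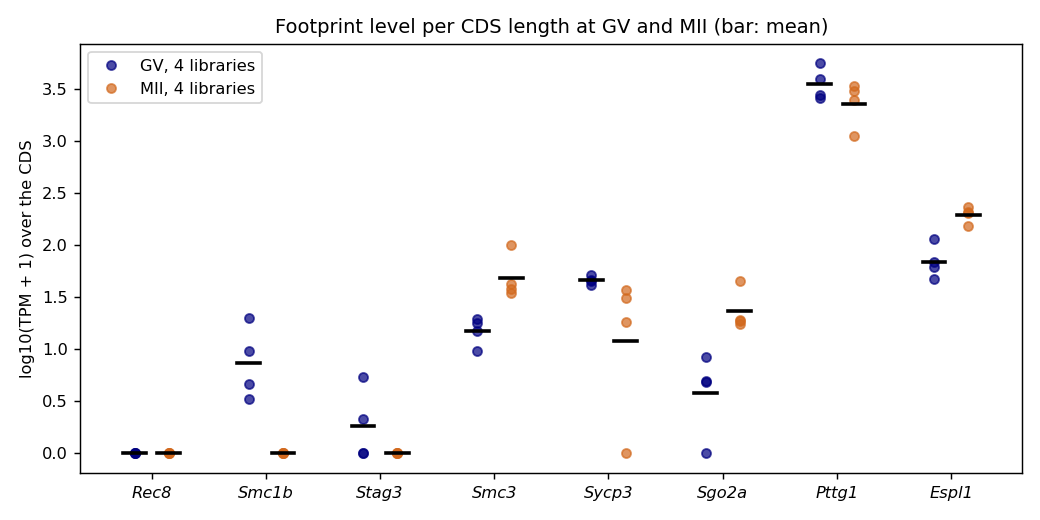
Footprint level per CDS length as log10(TPM + 1) (vertical axis) for the 8 genes in the 4 GV and 4 MII libraries that did not stand apart, 1 point per library, with the mean as a bar. Pttg1 is highest at both stages, Espl1, Smc3 and Sgo2a have higher means at MII, and Smc1b and Stag3 are at 0 in every MII library.

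Across these 4 GV and 4 MII libraries, 6 of the 8 genes had at least 10 footprints. The stages did not overlap in CPM for 3 that were higher at MII (Smc3, Sgo2a and Espl1), where 14.8% of 8094 genes had such a pattern, and for 2 that were lower (Smc1b and Sycp3), where 17.5% had. Each of these groups mixes genotypes, with 3 WT and 1 Nat10-ZcKO library at GV and 1 WT and 3 Nat10-ZcKO libraries at MII. For Smc1b, WT GV replicates 1 and 3 held 1 footprint each (6.87 and 10.4 CPM), and the 0 of WT MII replicate 1 allows 22.2 CPM. Separation of Smc1b library by library is therefore not shown.

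The study's question was what loss of Nat10 changes, and at MII none of the 8 genes was called between Nat10-ZcKO and WT, where 0.191% of 2097 genes were called. The log2 difference was 0.61 ± 1.73 for Espl1, 0.74 ± 1.83 for Pttg1 and 0.87 ± 0.99 for Smc3 (SE, edgeR adjusted p = 0.997 each). With WT MII replicate 1 as the lone WT library these became -0.15 ± 0.48, -0.04 ± 0.48 and 0.68 ± 0.65, and Sgo2a was at 0.58 ± 0.97, with 0.205% of genes called. Differences of the size of these errors were not detectable, and the comparison rests on 1 usable WT library. In the fit with that lone library Sgo2a passed the filter only through Nat10-ZcKO MII replicate 2, at 116 CPM. Its value there is therefore a description.

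At GV none of the 8 genes was called either, and no gene of 1765 was called by edgeR (0.0%), while an unadjusted p under 0.05 was reached by 70 higher and 23 lower genes, and DESeq2 called 7 genes, all higher. The log2 difference was -0.84 ± 0.76 for Espl1 (edgeR adjusted p = 0.908) and -0.32 ± 1.31 for Pttg1 (edgeR adjusted p = 0.951). In the fit with Nat10-ZcKO GV replicate 3 alone, assumed to vary like the 3 WT libraries, Pttg1 was higher by 1.11 ± 0.26 on the log2 scale (edgeR adjusted p = 0.00925), where 0.98% of 3879 genes were called higher. This value compares 1 library at 2905 CPM, which also had the highest share of oocyte marker footprints (11.2%), with WT libraries at 1306 to 1976 CPM. Espl1 was at -0.50 ± 0.36 in that fit. Smc1b, with 16 footprints in replicate 3 against 1, 7 and 1, passed the filter only through replicate 3, so its value is not read.

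Whether the genotypes differed in their change from GV to MII was tested as an interaction. None of the 8 genes was called, where 0.802% of 3863 genes were called, and Espl1 was at 2.11 ± 2.01 (edgeR adjusted p = 0.792). Without the libraries that stood apart edgeR called 0 of 4029 genes, while an unadjusted p under 0.05 was reached by 211 higher and 77 lower genes. That fit held a lone Nat10-ZcKO GV library and a lone WT MII library, which were assumed to vary like the others. Pttg1 was then at -1.07 ± 0.64 and Espl1 at 0.43 ± 0.61.

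Other genes of sister chromatid cohesion were followed as a list of 40, of which 39 were in the files: other ring subunits, loading, release and acetylation factors, protectors of cohesin, kinases that prepare it for cleavage, and axis and synaptonemal complex genes. Over the 11 libraries 28 of the 39 had at least 10 footprints and 4 had none. The most were on Ppp2r1a, the scaffold of PP2A, with 555, on the casein kinase gene Csnk1e with 507, on Plk1 with 329, on the mitotic kleisin Rad21 with 324 and on the cohesin release factor Wapl with 222. Rad21 thus had 324 footprints where its meiotic counterpart Rec8 had 0.

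Of this list, 15 genes were tested between stages with all 11 libraries and 1 was called, where 21.2% of all genes were: Syce2 of the synaptonemal complex. At MII, Syce2 reached the filter's 68.7 CPM in Nat10-ZcKO replicate 2 only (88.6 CPM), so it passed the filter through GV libraries. Its fall of 2.17 on the log2 scale (SE 0.81) in this fit is therefore a description. The median change of the 15 was -0.69, beside -0.59 over all genes tested. Without the 3 libraries that stood apart 15 were tested, 2 rose and 4 fell, where 25.5% of all genes were called higher and 29.5% lower, with a median of -0.04 beside -0.10 over all genes. Rad21 rose from 135 ± 31.5 to 301 ± 126 CPM (SD, n = 4 each, log2 change 0.97 ± 0.37, edgeR adjusted p = 0.0277). Wapl, counted among those that rose, was at 39.7 ± 11.9 CPM at GV and 281 ± 62.9 CPM at MII. It reached the filter's 65.3 CPM in MII libraries only, so its log2 change of 2.47 ± 0.42 in this fit is a description. Every MII value of both genes was above every GV value, a pattern of 14.8% of 8094 genes with at least 10 footprints. Of the list, Ppp2r1a and Stag1 had it too. Syce2, Plk1, Cdca5 and Rad21l lay lower at MII without overlap, as 17.5% of genes did. For Rad21l the nearest values were 13.7 CPM at GV and 13.6 CPM at MII, on 2 footprints each. Its 0 in WT MII replicate 1 allows 22.2 CPM, so separation of Rad21l is not shown. With no filter 35 of the list were tested in those libraries, where Wapl rose and Syce2 and Mau2 fell, and Rad21, Plk1 and Smc1a were not called (edgeR adjusted p = 0.0621, 0.0529 and 0.0739).

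Syce2 fell from 182 ± 36.0 to 36.6 ± 35.2 CPM in those libraries (SD, n = 4 each, edgeR adjusted p = 3.48e-05). Plk1 fell from 280 ± 32.5 to 150 ± 55.6 CPM (edgeR adjusted p = 0.0110). The loader gene Mau2, counted among those that fell, was at 107 ± 54.0 CPM at GV and 32.1 ± 29.3 CPM at MII. It reached the filter's 65.3 CPM in GV libraries only, so its fall in the filtered fit is a description. Smc1a, the mitotic counterpart of Smc1b, fell from 140 ± 39.9 to 73.2 ± 52.2 CPM (edgeR adjusted p = 0.0390). Ppp2r1a and Csnk1e were not called, at 0.42 ± 0.31 and 0.02 ± 0.32 on the log2 scale (edgeR adjusted p = 0.244 and 0.969).

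For the 3 members with at least 100 footprints, the genes with the most similar values were found by Pearson's r of log2(CPM + 1) over the 11 libraries among 2198 genes. Espl1 was most like Cenpe (0.995), Slc7a6os (0.991) and Dicer1 (0.990). Pttg1 was most like Hist1h2aa (0.993), Nkiras1 (0.992) and Wfdc3 (0.992), and Smc3 like Tnrc6b (0.981), Ephx2 (0.975) and Clint1 (0.974). The points share library depth and the 3 libraries that stood apart, so these values are a description.

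In acRIP-seq the anti-IgG library had 116232 counts on genes and the anti-ac4C library 970997, 8.35 times as many, and 46.7% and 17.1% of fragments fell on no feature. Espl1 had 372 anti-ac4C and 15 anti-IgG counts, a CPM ratio of 2.97 with an exact 95% interval of 1.78 to 5.36. Pttg1, with 673 and 86 counts, was at 0.937 (0.748 to 1.19), and Smc3, with 192 and 29 counts, at 0.793 (0.534 to 1.22). The separase mRNA thus had a higher ratio than those of securin and Smc3, and their intervals did not overlap. With 1 library per antibody there is no replicate check, and no test was made.

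Smc1b had 10 anti-ac4C and 7 anti-IgG counts, a ratio of 0.171 (0.0588 to 0.529), and Sycp3 had 8 and 8, a ratio of 0.120 (0.0392 to 0.366). Both lay below 1. Sgo2a had 27 and 0 counts, with a lower bound of 0.818, Rec8 had 1 and 0, and Stag3 had none in either library. Kctd18, which overlaps Sgo2a, had 8 and 10.

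The study took a ratio above 2 as ac4C-positive. By that rule 3 of the 7 genes with any count passed (Rec8, Sgo2a and Espl1), where 53.3% of 11883 genes passed, and Rec8 did so on 1 count. Without scaling to depth 5 passed, where 90.8% of genes did. With the lower bound of the interval above 2 none passed, where 3.69% of genes did. Among genes with at least 50 counts Espl1 passed of 3, where 32.8% did, and the median ratio of such genes was 1.27. Of the wider cohesion list 14 of 35 genes with counts passed, and the 20 with at least 50 counts had a median ratio of 1.14.

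**Figure D5:**
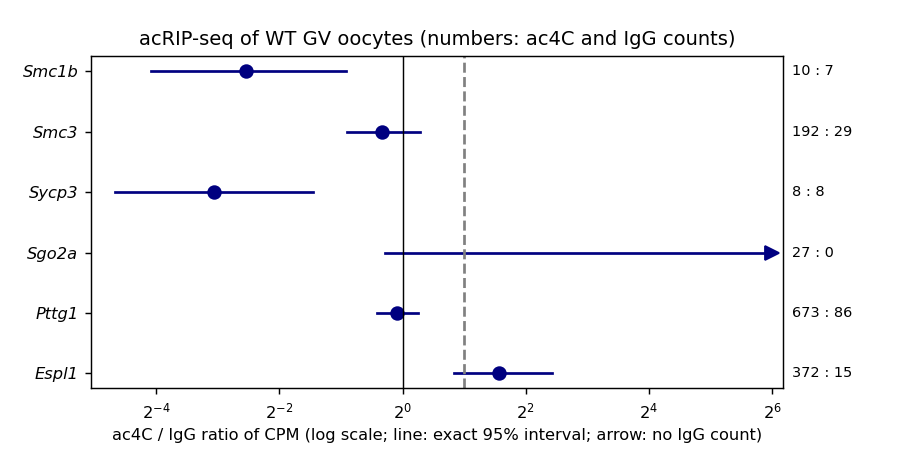
Ratio of CPM in the anti-ac4C library to CPM in the anti-IgG library (horizontal axis, log scale) with its exact 95% interval for the 6 genes with at least 10 counts, with both counts at the right and a dashed line at a ratio of 2. Espl1 is at 2.97 with an interval that crosses 2, Pttg1 and Smc3 are near 1, and Smc1b and Sycp3 are below 1.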

How the data were processed

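For Ribo-seq the authors deposited whole-number counts on the CDS of each gene, and for acRIP-seq whole-number counts on protein-coding genes, 1 library per file and without normalization. Per the labels cutadapt, STAR, HTSeq and mm10 were used, without versions; the handling of rRNA and PCR duplicates is not given in the sources used here. Summary rows of acRIP-seq (no feature 46.7% and 17.1%, ambiguous 0.392% and 0.750%) were left out. Of 22442 identifiers, 22399 matched GENCODE M21 (GRCm38), which gave positions, 3′ UTRs and CDS lengths (83 had none).

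Differences were fitted on the libraries of the groups compared in edgeR 4.0.16 under R 4.3.3, with TMM scaling after filterByExpr, a prior count of 0.125 and glmQLFTest. P-values were adjusted by Benjamini-Hochberg over all genes tested, with calls at an adjusted p under 0.05, and a standard error is the log2 change over the square root of F. DESeq2 1.42.0, other scalings, filters and library selections were alternatives. Ratios, shares and exact 95% (Clopper-Pearson) intervals were computed in Python 3.11.15 with scipy 1.17.1, and the edgeR step was tested on simulated data. Library totals were 4815 to 279464 counts. Named genes were the 8 members, genes of the cohesion list that were called or had the most footprints, and, for likeness, the 3 genes with the highest r. Members, lists and the libraries to leave out were chosen with earlier results of these data known.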

Additional observations from a re-analysis of the deposited data

How the results depend on the processing

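The number of the 8 genes called changed with libraries and filter. For genotype at MII it was 0 and ranged from 0 to 3 with each replicate left out, the 3 (Smc3, Pttg1 and Espl1) when WT MII replicate 1 was left out and replicate 2, with no footprint on them, stood alone for WT. For genotype at GV it was 0, and 1 without Nat10-ZcKO GV replicates 1 and 2. For stage in WT it was 0 and ranged from 0 to 2 with each replicate left out, 1 (Espl1, higher) without WT MII replicate 2 and 2 (both lower) without replicate 1. For stage in Nat10-ZcKO it was 0, but 1 with DESeq2, 4 without Nat10-ZcKO GV replicates 1 and 2, and 0 to 2 with each replicate left out, the 2 without Nat10-ZcKO GV replicate 3. For stage over both genotypes it was 0, but 1 (Smc1b) with no filter or at least 10 counts. Without the 3 libraries that stood apart it was 4, or 5 with no filter. Leaving out each replicate gave 0 to 3, the 3 without WT MII replicate 2. Both 4s and this 3 include genes passing the filter in 1 stage only. For the interaction it ranged from 0 to 3, the 3 without WT MII replicate 1. For ac4C/IgG above 2 it was 3, but 5 without scaling to depth, 1 with at least 50 counts and 0 by the lower bound.

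The log2 change of Pttg1 turned direction most often: at GV between genotypes to 1.11 without Nat10-ZcKO GV replicates 1 and 2, and for stage in Nat10-ZcKO to 0.062 with library size only, 0.13 with no filter, 0.14 with at least 10 counts and 0.11 with all 11 libraries in 1 fit. In the interaction it turned to -0.079 without those replicates and to -1.07 without the 3 libraries. Smc3 turned to -0.17 in the interaction with library size only. With each replicate left out, Pttg1 ranged from -0.039 to 10.40 and Espl1 from -0.15 to 10.02 for genotype at MII, Pttg1 from -3.26 to 0.25 for genotype at GV, Espl1 from -8.78 to 1.48 for stage in WT, and Pttg1 from -0.89 to 3.27 for stage in Nat10-ZcKO and from -0.83 to 0.99 over both genotypes. The cause was not tested. The other values of Smc3, Pttg1 and Espl1, the genes in the fits with all libraries, kept direction, 207 of them on the same side of the threshold and 21 newly past it.

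Whether replicate numbers pair the libraries was not settled: deviations of same-numbered libraries correlated at -0.05 to 0.15, with too few libraries to exclude pairing. With the replicate block none of the 8 genes was called in any of the 6 comparisons, Pttg1 was at 1.26 for stage in Nat10-ZcKO and Espl1 at -0.83 for stage in WT, and calls over all genes went from 291 higher and 529 lower to 85 and 175 for stage over both genotypes.

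Calls over all genes, higher and lower, also moved by over 1.5 times. Genotype at MII had 0 and 4 (DESeq2 0 and 11, library size only 2 and 42, at least 10 counts 0 and 17). Genotype at GV had 0 and 0 (no filter 29 and 12, all 11 libraries 21 and 2). Stage in WT had 6 and 0 (DESeq2 108 and 183, library size only 343 and 654). Stage in Nat10-ZcKO had 222 and 146 (DESeq2 408 and 406), stage over both genotypes 291 and 529 (DESeq2 676 and 946, no filter 86 and 178), and the interaction 1 and 30 (library size only 0 and 48, at least 10 counts 1 and 16). Single replicates moved them further: stage in Nat10-ZcKO had 0 and 0 without any one of Nat10-ZcKO MII replicates 1, 2 and 3, against 419 to 495 higher and 281 to 341 lower genes with an unadjusted p below 0.05. Without WT MII replicate 1, genotype at MII had 1330 and 121, stage in WT 121 and 1781, stage over both genotypes 22 and 125, and the interaction 1138 and 71, and without Nat10-ZcKO GV replicate 3 genotype at GV had 213 and 167. Depth limits Rec8, Stag3, Smc1b, Sycp3 and Sgo2a most, with 0 to 50 footprints over 11 libraries.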
